A study of Homo sapiens with 4 samples.

Results

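MYOD binding was compared between RD cells with SKP2 knockdown (shSKP2) and RD cells with a scrambled non-targeting shRNA (shSCR, control). RD is a long-established cell line from a fusion-negative rhabdomyosarcoma (FN-RMS), a tumor of the skeletal muscle lineage that keeps expressing MYOD without completing differentiation, and SKP2 is the subunit that selects substrates for the SCF ubiquitin ligase. Both arms were the same line, carried an shRNA, were immunoprecipitated with the same MYOD antibody and differed by label in the shRNA target alone. The shRNAs came from lentiviral vectors, and a single hairpin against SKP2 stood for the knockdown. The series holds 4 libraries, and the 2 MYOD libraries were 1 per arm, so the spread between replicates is unknown and no test between arms is given. The members were all MYOD peaks on chromosomes 1 to 22, X and Y, namely 8457 in the knockdown list and 5814 in the control list, or 14271 of the 78084 peaks that the MYOD and H3K27ac lists of the series hold together. Peaks that touched an entry of the opposite list, over 1 bp or more, were counted as shared. This gave 4730 knockdown-only peaks and 3727 shared peaks in the knockdown list, and 2086 control-only peaks and 3728 shared peaks in the control list. Merged over both lists, the peaks formed 10538 sites, 3722 of them in both arms. The rule is sharp at its border: the smallest overlap of a shared pair was 1 bp and the smallest gap of a single-list peak was 8 bp in each list, with 20 of 3733 overlaps shorter than 50 bp and 18 single-list peaks less than 50 bp from the other list. No knockdown was measured here, since peak lists hold no SKP2 transcript or protein.

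MYOD is a basic helix-loop-helix transcription factor that binds DNA as a dimer, mostly with an E protein such as TCF3, TCF4 or TCF12. Its target is the E-box, the hexamer CANNTG, with a preference for the inner bases GC and GG, which are read as CAGCTG and CAGGTG. MYOD opens chromatin at muscle genes and binds many more sites than the genes it activates. In rhabdomyosarcoma it occupies muscle enhancers although the cells go on dividing. A peak list gives for each peak a summit, the position of the highest read pileup, and a fold, the pileup at the summit plus 1 over the local background plus 1. The strength of a peak is given as the deposited -log10 p of that summit. A peak that is missing from a list shows that the calling threshold was not reached there, not that MYOD was absent. Library depth is not in the lists, and the smallest background recovered from each stood in for it, at 1.94 fragments per position for the knockdown library and 1.48 for the control library, a ratio of 1.31. The knockdown list was longer, and how far depth contributes to that length was not tested. All 95% intervals below cover counting error only.

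The sequences under the summits show what the 3 classes of peak have in common and where they differ. Each window is the summit with 40 bp on each side, from the plus strand of hg38, and capitals mark every CANNTG hexamer. Read on the opposite strand, CAGGTG appears as CACCTG, while the form CATCTG stands for CAGATG. The shared peaks chosen are those of RDH8 and MAMSTR, among the strongest of both lists, and of the muscle genes CHRND, MUSK, MYBPH and MYOG. RDH8 is named only as the nearest transcription start site (TSS).
RDH8 (shared), chr19:10027765-10027845: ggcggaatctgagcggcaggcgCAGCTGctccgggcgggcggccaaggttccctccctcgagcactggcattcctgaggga
MAMSTR promoter (shared), chr19:48719946-48720026: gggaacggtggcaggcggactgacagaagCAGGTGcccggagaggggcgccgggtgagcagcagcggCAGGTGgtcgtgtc
CHRND promoter (shared), chr2:232525846-232525926: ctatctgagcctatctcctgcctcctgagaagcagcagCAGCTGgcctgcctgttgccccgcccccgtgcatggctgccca
MUSK promoter (shared), chr9:110668670-110668750: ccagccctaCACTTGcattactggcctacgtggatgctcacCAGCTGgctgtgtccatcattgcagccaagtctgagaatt
MYBPH intron 3 (shared), chr1:203173679-203173759: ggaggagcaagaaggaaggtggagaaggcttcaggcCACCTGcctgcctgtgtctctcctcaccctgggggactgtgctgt
MYOG promoter (shared), chr1:203086256-203086336: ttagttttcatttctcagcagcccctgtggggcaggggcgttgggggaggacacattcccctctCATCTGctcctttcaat
The E-box of RDH8, CHRND and MUSK carried the GC core. MAMSTR, a coactivator of the MEF2 factors, had 2 CAGGTG in the window, 4 within 100 bp and no CAGCTG. The MYOG promoter, a classic MYOD target, had neither hexamer in its window and held a single CATCTG.

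For the peaks of a single list the windows come from the strongest peaks, from promoters and from muscle genes. Knockdown-only windows are those of ZNF280B (coding exon), RSPH4A and CENPU (promoters), CHRNE and PHKG1.
ZNF280B exon 4 (knockdown-only), chr22:22488327-22488407: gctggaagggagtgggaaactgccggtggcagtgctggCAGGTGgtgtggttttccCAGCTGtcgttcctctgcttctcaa
RSPH4A promoter (knockdown-only), chr6:116616837-116616917: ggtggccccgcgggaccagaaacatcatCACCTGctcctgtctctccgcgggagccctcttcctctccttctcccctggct
CENPU promoter (knockdown-only), chr4:184734410-184734490: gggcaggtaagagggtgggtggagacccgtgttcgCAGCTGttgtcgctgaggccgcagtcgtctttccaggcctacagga
Upstream of CHRNE (knockdown-only), chr17:4909126-4909206: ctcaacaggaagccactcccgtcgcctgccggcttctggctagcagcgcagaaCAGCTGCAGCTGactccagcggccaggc
PHKG1 intron 4 (knockdown-only), chr7:56084926-56085006: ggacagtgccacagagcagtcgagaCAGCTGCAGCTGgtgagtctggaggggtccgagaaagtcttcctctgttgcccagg
Control-only windows are those upstream of PPP1CB, in SLBP, in NTMT2 and SMPX and at the PIDD1 promoter.
Upstream of PPP1CB (control-only), chr2:28717605-28717685: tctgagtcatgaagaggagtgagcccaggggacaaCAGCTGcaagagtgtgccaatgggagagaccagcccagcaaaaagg
SLBP intron 6 (control-only), chr4:1696062-1696142: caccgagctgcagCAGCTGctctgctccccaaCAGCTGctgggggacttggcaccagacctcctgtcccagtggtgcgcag
NTMT2 intron 2 (control-only), chr1:170162976-170163056: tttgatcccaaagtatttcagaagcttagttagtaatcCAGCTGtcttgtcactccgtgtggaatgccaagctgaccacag
SMPX intron 3 (control-only), chrX:21742047-21742127: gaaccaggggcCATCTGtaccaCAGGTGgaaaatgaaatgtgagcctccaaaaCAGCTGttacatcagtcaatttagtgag
PIDD1 promoter (control-only), chr11:805385-805465: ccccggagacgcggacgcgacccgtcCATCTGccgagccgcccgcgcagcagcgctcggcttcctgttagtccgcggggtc
The windows of CHRNE and PHKG1 each held 2 CAGCTG that abut. All 10 single-list windows held an E-box, and only the PIDD1 promoter lacked both CAGCTG and CAGGTG in its window.

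Binding at the shared sites was examined first. The lists held 3711 pairs in which a peak of each list overlapped no further peak of the other. The median fold of these pairs was 6.89 in the knockdown list and 6.55 in the control list. The median log2 ratio, knockdown over control, was 0.05 (interval 0.04 to 0.06), and 56.6% of the pairs had the higher fold in the knockdown list. Across sites the folds of both arms ran together, with a Spearman rho of 0.76 over 3711 pairs, given as a description because the pairs share 2 libraries. The fold was at least 1.5 times higher in the knockdown list for 254 pairs (6.84%) and at least 1.5 times higher in the control list for 124 pairs (3.34%). Without replicates these shares count pairs past a size and are no calls of change. When the recovered pileup at each summit was divided by the smallest background of its list, the median log2 ratio turned to -0.17. The direction of the small overall difference therefore depends on how the 2 libraries are scaled.

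The difference between arms varied with the strength of the site. Pairs with a control fold under 4 had a median log2 ratio of 0.28 (interval 0.21 to 0.36, n = 242), and those between 4 and 5 had 0.17 (n = 618). Between 6 and 8 the median was 0.01 (interval -0.01 to 0.04, n = 1019). Pairs over 10 had -0.05 (interval -0.07 to -0.03, n = 579). Pairs sorted by the control fold lean toward a higher knockdown fold at the low end by the sorting itself, so this gradient is a description of the lists. For each pair, position and E-box content were read at the summit of the knockdown peak alone. Promoter pairs had a median log2 ratio of 0.10 (interval 0.08 to 0.14, n = 738) and distal pairs of 0.04 (interval 0.02 to 0.05, n = 2973). By E-box content, pairs with CAGGTG but no CAGCTG had 0.08 (n = 810), pairs with both 0.07 (n = 871), pairs with CAGCTG but no CAGGTG 0.04 (n = 1732), and pairs with neither -0.01 (interval -0.06 to 0.04, n = 298).

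**Figure D1:**
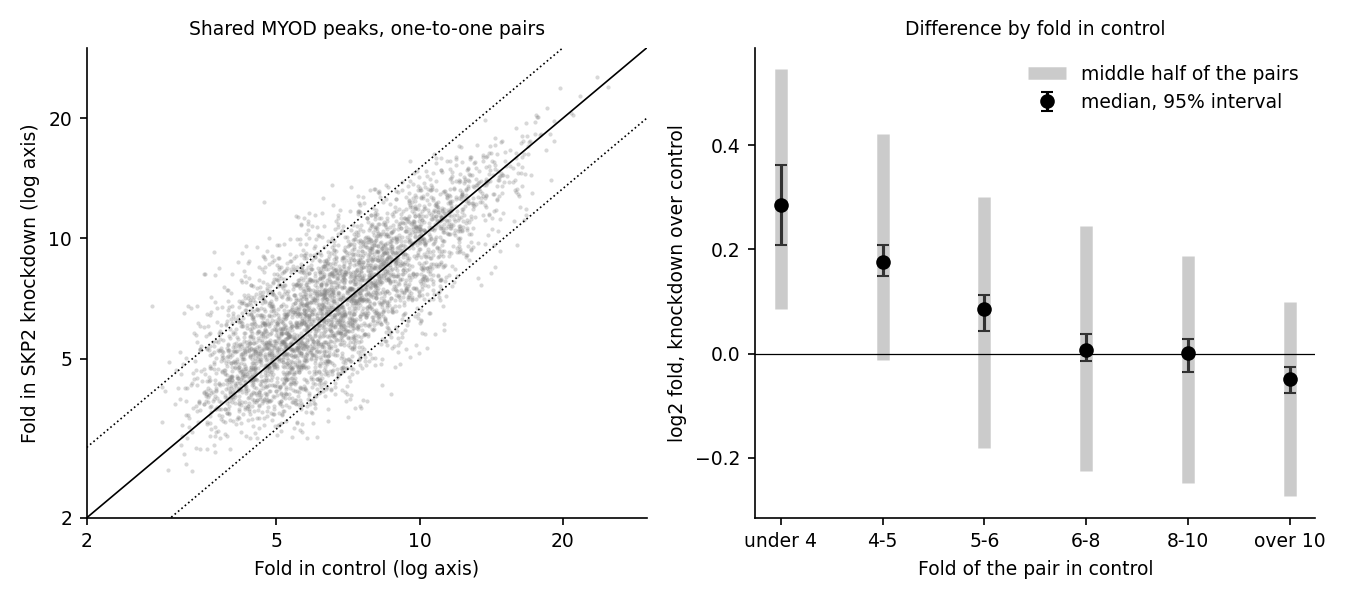
Folds of the 3711 shared MYOD pairs. Left, each point is a pair, with the fold in the SKP2 knockdown list (y, log axis) against that in the control list (x, log axis); the solid line marks equal folds and the dotted lines a factor of 1.5, which 254 pairs exceed on the knockdown side and 124 on the control side. Right, log2 ratio of knockdown over control (y) by the fold of the pair in control (x), with the median and its 95% interval (points and bars) and the 25th to 75th percentile (gray); the medians go down from 0.28 at folds under 4 to -0.05 at folds over 10.

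The shape of shared peaks was close in both arms. Their median width was 334 bp in the knockdown list and 300 bp in the control list, the median ratio within a pair was 1.09, and 61.3% of pairs were wider in the knockdown. The summits of a pair lay a median of 15 bp apart, and 79.3% of pairs had their summits within 50 bp. Median pileup at the summit was 30 fragments in the knockdown list and 25 in the control list. Single-list peaks were narrower and lower. Knockdown-only peaks had a median width of 251 bp, a fold of 4.57 and a pileup of 16, and control-only peaks of 230 bp, 4.61 and 15. A single-list peak rarely had a close neighbor in the other list: a peak lay within 1000 bp of 138 knockdown-only (2.92%) and 108 control-only peaks (5.18%).

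The pairs with the largest ratio of folds were named by rule, among pairs that reached a -log10 p of 10 in either list. On the knockdown side the largest lay in intron 5 of SENP7, a SUMO protease, nearest to the TSS of IMPG2 (12.4-fold in the knockdown list, 4.72-fold in the control list). It was followed by POLB, the DNA polymerase of base excision repair (9.25 and 3.71 at its promoter), where the summits of the pair lay 447 bp apart. A site in CPVL near TRIL came next (6.79 and 2.75). Intron sites in A2M, a protease inhibitor of plasma, had folds of 8.15 in the knockdown and 3.53 in the control list, and those in MMP9, a matrix metalloprotease, 8.15 and 3.54. A site upstream of EZH2, the methyltransferase of H3K27, had 8.45 in the knockdown and 3.79 in the control list. The others were AADACL2 (9.57 and 4.32), the promoters of JMY (8.08 and 3.71) and ALS2CL (9.20 and 4.25) and the 5' UTR of RAB5B (8.73 and 4.15). In 8 of these 10 pairs CAGGTG lay within 100 bp of the summit of the knockdown peak, and CAGCTG in 3, against 1681 and 2603 of all 3711 pairs.

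On the control side the site with the largest ratio lay 264 kb from the TSS of IPMK (4.08-fold in the knockdown list, 8.70-fold in the control list). A site 162 kb from the TSS of NFATC2, a calcineurin-dependent factor, had 3.76 and 7.53, in the same order of arms. In intron 9 of JARID2, a cofactor of Polycomb repression, a site named by the nearest TSS as DTNBP1 had 3.58 in the knockdown and 7.07 in the control list. GRPEL1, encoding a cofactor of mitochondrial protein import, had 5.33 and 10.3, and intron 4 of GFRA1, a receptor for GDNF, had 4.30 and 8.33. The remaining pairs were near RPS6KA4, CHST15, BATF3, SPP2 and DOCK10, with knockdown folds of 3.77 to 5.18 and control folds of 7.30 to 9.95. At the same distance, again from the summit of the knockdown peak, 4 of these 10 held CAGGTG and 7 held CAGCTG. None of them lay within 2 kb of a TSS, against 4 of the 10 on the knockdown side.

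Whether a peak was shared followed its strength. The knockdown list was divided into 10 parts of equal size by -log10 p, and in the weakest part 8.39% of peaks were shared (interval 6.71 to 10.5), against 92.3% in the strongest (interval 90.3 to 93.9). In the control list the shares were 22% and 96.2%. In each of the 10 parts the share was lower in the knockdown list, which is the longer of the 2. Median -log10 p was 8.29 for knockdown-only and 7.92 for control-only peaks, whereas shared peaks had 18.4 in the knockdown list and 15.8 in the control list. Peaks of a single list were thus the weaker part of each list, but not all were weak: 167 knockdown-only and 79 control-only peaks exceeded a -log10 p of 25.

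**Figure D2:**
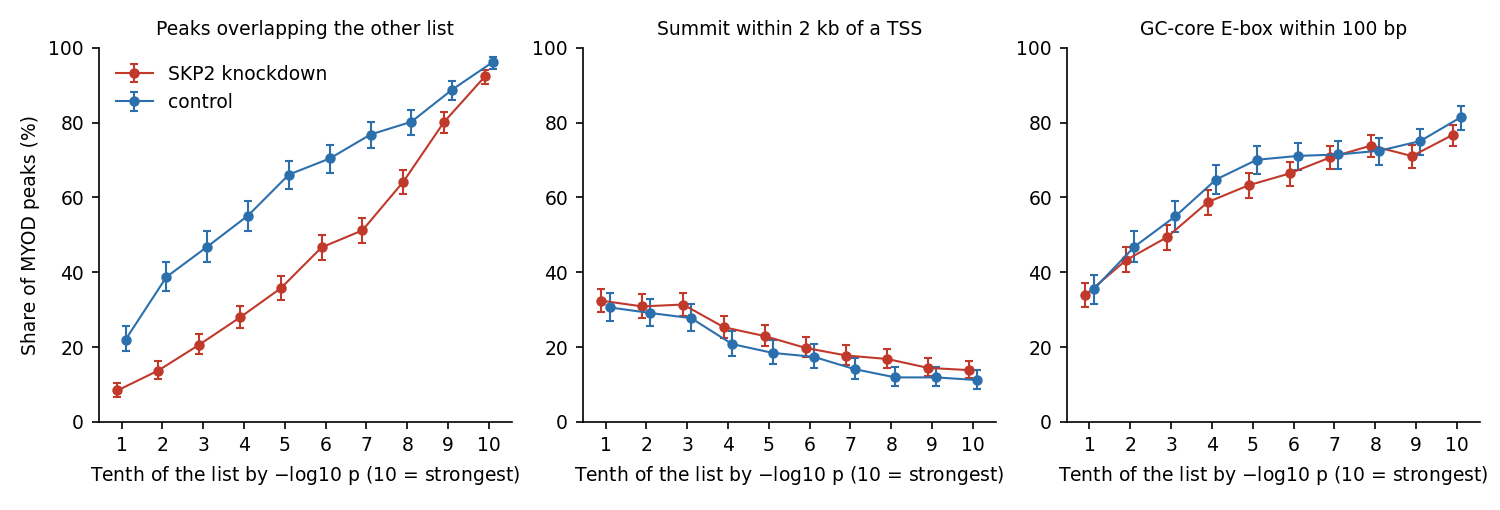
MYOD peaks of the SKP2 knockdown (red) and control (blue) lists in 10 parts of equal size by -log10 p (x, 10 is the strongest). The y axes give the percent of peaks overlapping the other list (left), with the summit within 2 kb of a TSS (middle) and with a GC-core E-box (CAGCTG) within 100 bp of the summit (right), and bars are 95% Wilson intervals. Sharing runs from 8.39 to 92.3% in the knockdown list and from 22 to 96.2% in the control list, and promoters are least frequent in the strongest part of both lists.

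Distance to the TSS differed between the classes. The median distance of the summit to the nearest protein-coding TSS was 23.5 kb for knockdown-only, 36.8 kb for control-only and 28.7 kb for shared peaks. The share within 2 kb, here called promoter, was 6.41 percentage points higher in knockdown-only than in control-only peaks (interval 4.31 to 8.44). Within those 2 kb the difference was largest between 100 and 500 bp of the TSS, with 12.0% of knockdown-only against 8.92% of control-only peaks. Beyond 100 kb the order was the opposite, with 21.3% of knockdown-only and 26.9% of control-only peaks. At the promoters the summit lay upstream of the TSS in 494 of 1167 knockdown-only (42.3%), 154 of 381 control-only and 50.9% of shared peaks of the knockdown list (interval 47.3 to 54.5). Introns held 40.2% of knockdown-only, 44% of control-only and 41.3% of shared peaks. Coding exons held 4.48%, 3.45% and 3.84% in that order.

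Promoters were the weaker sites within each list, which bears on this comparison. In the knockdown list 32.4% of the weakest part and 13.8% of the strongest lay at promoters, and in the control list 30.6% and 11.2%. Classes were therefore also set side by side at like strength. At a -log10 p of 10 to 15, promoters held 17.6% of the knockdown-only peaks (interval 15.3 to 20.1), 9.71% of the control-only peaks (interval 7.13 to 13.1) and 23.6% of the shared knockdown peaks (interval 20.8 to 26.7). At 15 to 25 the shares were 11.8% for knockdown-only, 4.84% for control-only and 19.0% for shared peaks. The knockdown-only share exceeded the control-only share in all 6 strata of strength, although at 4 to 6 with overlapping intervals (31.3% and 27.4%), as at over 25 (7.78% and 1.27%). The knockdown-only share exceeded the shared one only between 6 and 10, and lay under it from 10 upward and at 4 to 6. Over whole lists it was 4.84 points above the shared class (interval 3.06 to 6.61), but with both lists at equal length the difference was -0.45 (interval -2.46 to 1.58). Keeping the stronger entries alone, from a -log10 p of 10 upward, gave 2.08 points (interval -0.06 to 4.24), which includes 0. By GC content within 100 bp of the summit, the promoter shares of knockdown-only and control-only peaks had overlapping intervals in every stratum. In this order they were 5.68% and 3.59% at 40 to 45% GC, 5.87% and 2.77% at 45 to 50%. Over 65% they were 70.3% and 63.0%. They were close at 55 to 60% (16.1% and 15.8%) and 60 to 65% (32.6% and 32.3%). The knockdown-only share was the lower one up to 40% (2.29% and 2.68%) and at 50 to 55% (7.63% and 10.8%).

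Within 500 bp of a TSS, the strongest peaks of the knockdown list alone were at RSPH4A, a radial spoke protein of cilia (11.7-fold, -log10 p of 39.6), and CENPU, a kinetochore protein (11.2-fold, 37.1). Others were at BRME1, a meiotic recombination factor (10.0-fold), USP14, a deubiquitinase of the proteasome (9.49-fold), PLA2G4C (8.66-fold), TCEAL1 (9.87-fold), PRPF39 (8.78-fold), BIRC3, an inhibitor of apoptosis (8.24-fold), and TEP1 (8.77-fold). In the control list alone they were weaker, with KRTAP5-8 (8.22-fold), USP18, a protease that removes ISG15 (8.02-fold), an unnamed gene (ENSG00000260851, 7.77-fold), PIDD1, a p53-inducible death domain protein (7.70-fold), CDC25B, a phosphatase that activates CDKs (7.20-fold), ZNF524, ZNF195, SCN3B, BAIAP2L1 and FKBP14 (5.80 to 7.22-fold). The SCN3B peak had a knockdown peak 217 bp away. The others named here were at least 9992 bp from a peak of the other list. KRTAP5-8 had 5 CAGCTG within 100 bp of the summit, but it belongs to a family of similar keratin-associated genes, so its position is uncertain.

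E-boxes were counted around the summits of each class. A CANNTG was present no farther than 100 bp from the summit in 90.3% of knockdown-only and 90.1% of control-only peaks. It was present in 97.5% of shared knockdown and 97.6% of shared control peaks. In neighboring windows of equal size, shifted by 2 kb, the general hexamer was found in 65.1 to 67.1%, CAGCTG in 8.79 to 9.68% and CAGGTG in 19.7 to 21.2%, over both strands. CAGCTG itself was present in 53.3% of knockdown-only, 53.2% of control-only and 70.2% of shared knockdown peaks. CAGCTG was less frequent in knockdown-only than in shared knockdown peaks (difference -16.9, interval -19.0 to -14.9) and in control-only than in shared control peaks (difference -17.4, interval -20.0 to -14.8), with no detectable difference between knockdown-only and control-only peaks (0.09 points, interval -2.47 to 2.66). CAGCTG also rose with strength, from 33.9% in the weakest to 76.7% in the strongest part of the knockdown list. At a -log10 p of 10 to 15 it was present in 63.3% of knockdown-only and 68.8% of shared knockdown peaks. Control-only and shared control peaks had 65.9% and 73.0% there. At 15 to 25 the shares were 70.2% and 73.5%, and 71.0% and 72.2%, in this order. The single-list share was the lower one in every stratum, by less than over whole lists. At least 2 CAGCTG were found in 13.2% of knockdown-only, 12% of control-only and 23.9% of shared peaks. Where a CAGCTG was present, its distance to the summit was at most 25 bp in 67.4% of knockdown-only, 70.8% of control-only and 76.6% of shared peaks. All 3 classes thus centered on the hexamer, and over whole lists the shared ones most closely. Copy number and distance to the summit were not compared at like strength.

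**Figure D3:**
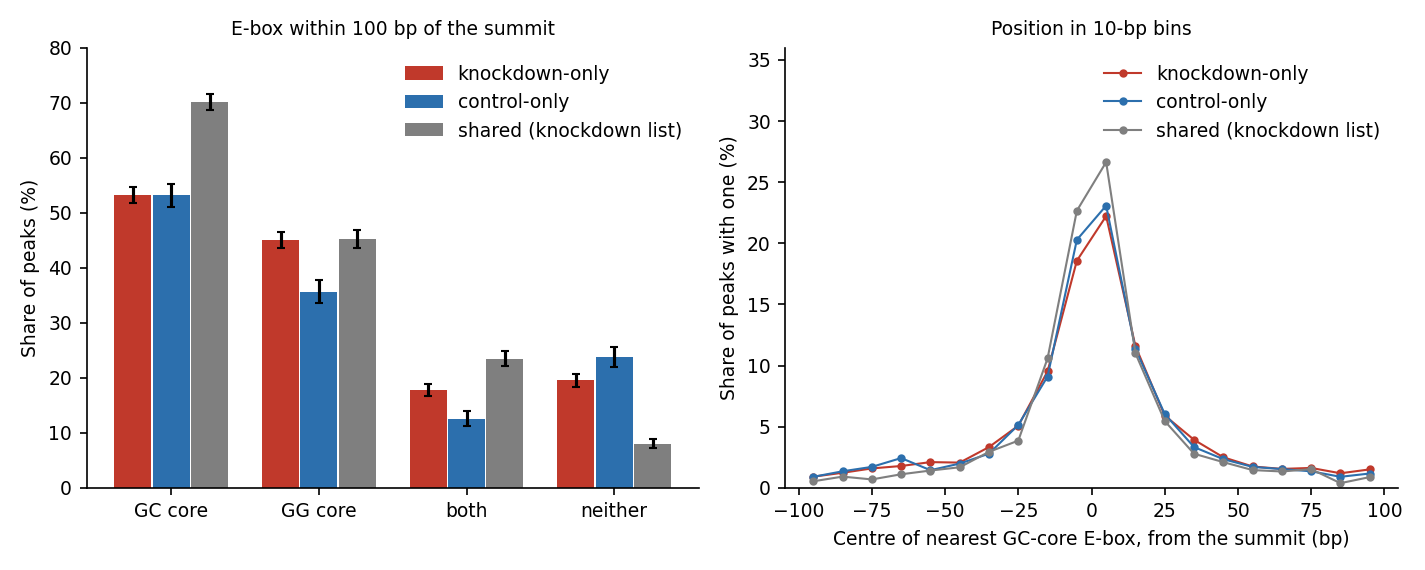
E-boxes at MYOD summits. Left, percent of knockdown-only (red), control-only (blue) and shared peaks of the knockdown list (gray) with a GC-core E-box (CAGCTG), a GG-core E-box (CAGGTG), both or neither within 100 bp of the summit, with 95% Wilson intervals. Right, position of the nearest CAGCTG in bins of 10 bp among peaks with one. CAGGTG is less frequent in control-only peaks (35.7%) than in knockdown-only (45%) and shared peaks (45.3%), and all classes peak at the summit.

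CAGGTG behaved otherwise than CAGCTG. It was present in 45% of the knockdown-only peaks (interval 43.6 to 46.4), in 35.7% of the control-only peaks (interval 33.6 to 37.7) and in 45.3% of the shared knockdown peaks. Knockdown-only exceeded control-only peaks by 9.34 points (interval 6.83 to 11.8), a comparison chosen after the values were seen. The excess was found at promoters (467 of 1167 knockdown-only and 129 of 381 control-only peaks) and at distal sites (46.6% and 36.1%). Base composition differed between these classes, with a median GC content within 100 bp of the summit of 55.2% in knockdown-only, 51.2% in control-only and 55.7% in shared peaks. Within strata of GC content the knockdown-only share was the higher one in all 7, from 32.0% against 25.5% at a GC content of up to 40% to 42.7% against 32.1% over 65%, although the intervals overlapped in 5 of the 7. By strength it was higher in all 6 strata, with 39.8% of knockdown-only and 37.2% of control-only peaks at a -log10 p of 6 to 8 and 53.0% and 37.5% at 15 to 25. The intervals overlapped at 6 to 8 and over 25. Since each class comes from 1 library, a difference between the libraries or chromatin preparations cannot be told apart from the knockdown.

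**Figure D4:**
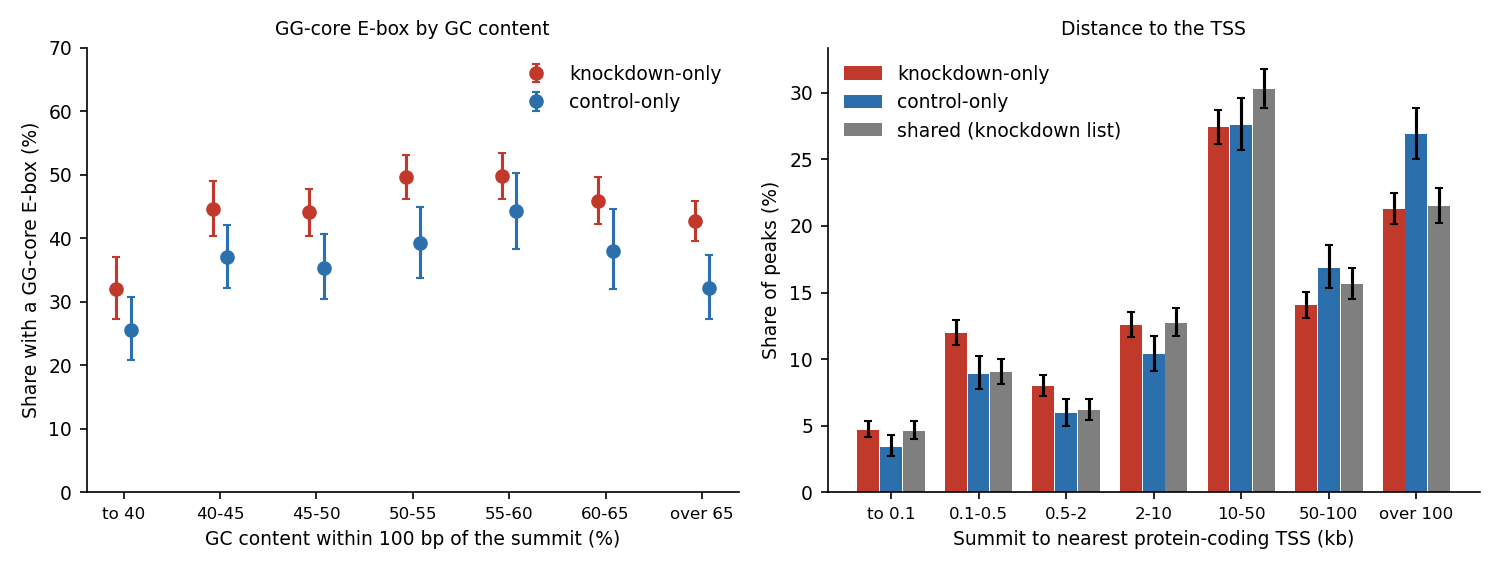
Left, percent of knockdown-only (red) and control-only (blue) MYOD peaks with a GG-core E-box (CAGGTG) within 100 bp of the summit (y) by GC content of the same window (x), with 95% Wilson intervals. Right, percent of knockdown-only, control-only and shared peaks of the knockdown list (gray) by distance of the summit to the nearest protein-coding TSS. Knockdown-only peaks have the higher CAGGTG share in all 7 strata of GC content, and control-only peaks are the most frequent class beyond 100 kb (26.9%).

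Other motifs differed less. The TEAD hexamer GGAATG was found in 12.6% of knockdown-only and 16.4% of control-only peaks (difference -3.79 points, interval -5.68 to -1.98), against 10.3 to 11.2% of the windows nearby. The AP-1 heptamers TGAGTCA and TGACTCA were found in 7.10% and 8.92% (difference -1.81, interval -3.29 to -0.43), against 3.08 to 3.50% nearby. The E-box CAAATG was found in 10.2% and 14.1% (difference -3.93), at or under the 12.7 to 14.6% of nearby windows. GC content differed between the classes, and the TEAD, AP-1 and CAAATG shares were not compared within strata of it. A match is a run of letters and no proof of a bound factor. The peaks with the most CAGCTG within 100 bp were those of TMCO3 (10 copies, 4.76-fold in the knockdown and 4.10-fold in the control list), GAK intron 24 near CPLX1 (9 copies), a control-only peak upstream of LPCAT1 (9 copies, 4.58-fold), HSBP1 (7 copies, 11.3 and 5.57-fold) and an intron of PRR5-ARHGAP8 (6 copies). Copy number of the hexamer in these 5 did not go with a high fold, except at HSBP1 in the knockdown list.

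Acetylation of H3K27, a mark of active promoters and enhancers, was read at the same peaks from the H3K27ac lists of both arms. Of distal peaks, 31.8% of the knockdown-only, 39.0% of the control-only and 60.8% of the shared class overlapped an H3K27ac peak of the knockdown arm. The control arm marked 15.5%, 23.7% and 41.5% of the same peaks in the same order. Control-only sites were thus marked more often than knockdown-only sites in the H3K27ac lists of both arms. The H3K27ac list held 38457 peaks in the knockdown arm and 25356 in the control arm. How far list length contributes to the higher shares in the knockdown arm was not tested.

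Clusters of MYOD sites were examined because muscle enhancers often hold several bound sites. Merged sites up to 12500 bp apart were joined, which gave 224 clusters of at least 3 sites with 753 sites in all, 913 pairs and 7959 single sites. A neighbor at that distance was present for 22% of the knockdown-only sites (interval 20.9 to 23.2), for 25.5% of the control-only sites (interval 23.7 to 27.4) and for 27% of the shared sites (interval 25.6 to 28.5). Clusters held 6.34%, 7.19% and 8.14% of these classes. In 14 clusters all sites were shared and in 43 none was. Knockdown-only sites outnumbered control-only sites in 123 clusters and were outnumbered in 37, at a ratio of 4730 to 2086 in the lists as a whole.

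The 2 largest clusters lay at or beside centromeres, where repeats make read placement uncertain. On chromosome 4 (49091910 to 49121217) 10 sites, 7 of them shared, had backgrounds of up to 16.9 fragments in the knockdown list, and on chromosome 13 (16113435 to 16148920) 8 sites were joined. Neither held a CAGCTG at any summit or a protein-coding gene. The largest cluster over genes had 7 sites on chromosome 19 (17214962 to 17255685, over NR2F6, USHBP1, OCEL1 and USE1), with 4 knockdown-only, 1 control-only and 2 shared sites and folds of 3.8 to 6.32 in the knockdown list and 3.31 to 4.29 in the control list. IQCE and TTYH3 shared a cluster of 6 sites, 4 of them in both arms, with folds up to 10.3 and 8.19. A further cluster of 6 lay near CAMK2G, the gamma chain of calcium/calmodulin-dependent kinase, with 3 knockdown-only, 1 control-only and 2 shared sites. Of the 11 clusters of 5 sites, the 5 longest were at ZBTB46 and ABHD16B, HDGF and ISG20L2, CPA5, BAHCC1 and the KRTAP4 genes. CPA5, a carboxypeptidase gene, had 4 shared sites with folds up to 18.2 in the knockdown and 17.5 in the control list and no knockdown-only site. At HDGF and ISG20L2 none of the 5 sites was shared, and no fold exceeded 4.45.

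Gene lists by function were set against the peak classes next, counting a gene when a peak summit lay in the gene or within 10 kb of it. Of all 20033 protein-coding genes, 19.9% had a knockdown-only, 8.9% a control-only and 15.6% a shared peak. These shares are the background for every list below. The lists were chosen with results of these data known, so their counts are descriptions. Genes differ in length, and the median span was 47.5 kb over all genes and 27.2 to 128 kb over the lists. A peak in overlapping spans counted for each gene.

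**Figure D5:**
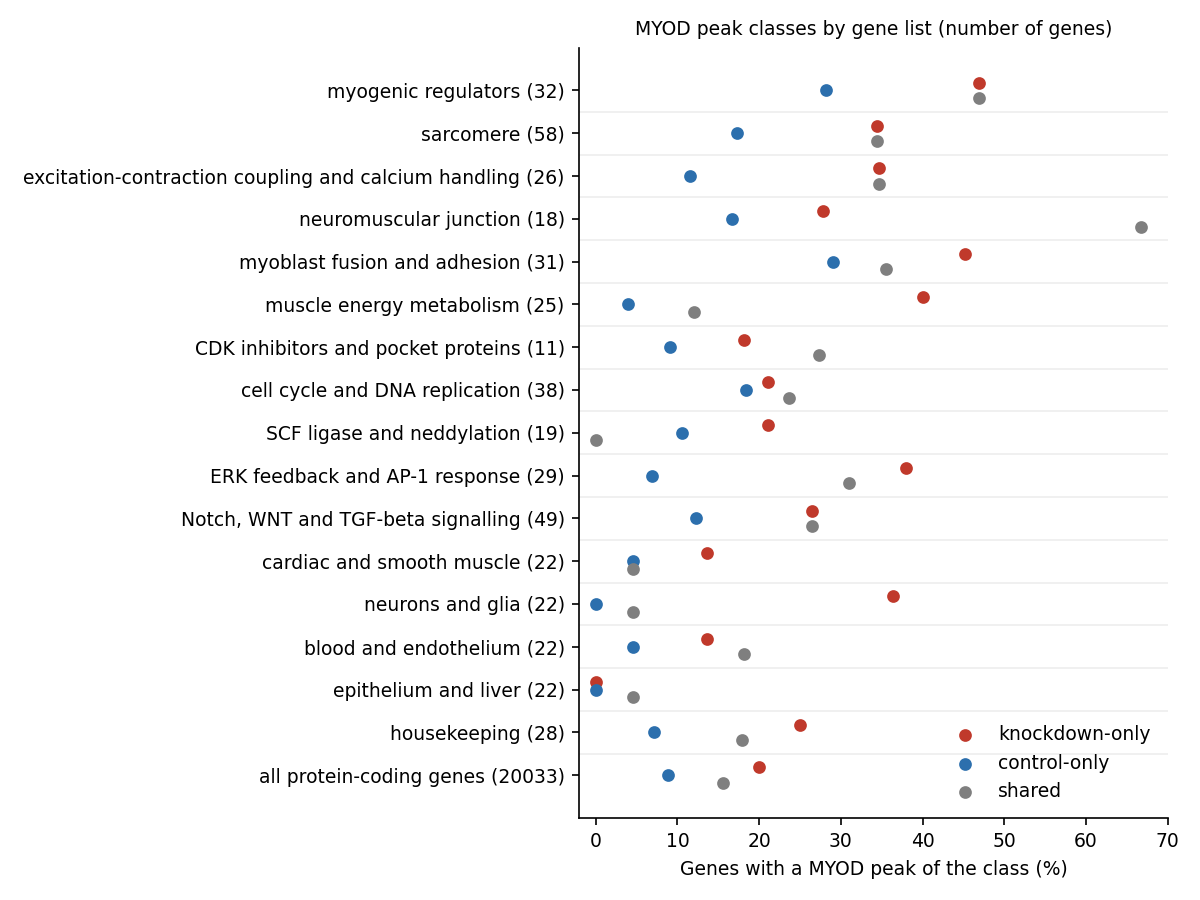
Percent of the genes of each list (rows, number of genes in brackets) with a knockdown-only (red), control-only (blue) or shared (gray) MYOD peak summit in the gene or within 10 kb. The neuromuscular junction list has the highest shared percent (66.7%), and all protein-coding genes, in the bottom row, have 19.9, 8.9 and 15.6%.

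The neuromuscular junction is where muscle receives the signal of its nerve, and its genes held the highest share of shared peaks. Of 18 genes, 5 had a knockdown-only, 3 a control-only and 12 a shared peak. The acetylcholine receptor subunits were bound at their promoters in both arms: CHRNB1 at 18.1-fold in the knockdown and 16.4-fold in the control list, CHRND at 13.9 and 14.0, CHRNG at 10.7 and 10.0, and CHRNA1 at 7.33 and 9.27. MUSK, the kinase that organizes the receptors, had 7.87 and 5.69, and RAPSN, the scaffold that anchors them, had 10.8 and 10.9. ERBB3, a receptor of neuregulin, had 11.9 and 11.6 at its promoter. CHRNE, the subunit of the adult receptor, instead had a knockdown-only peak 6.07 kb upstream of its TSS (9.57-fold), the 2 abutting CAGCTG of which are shown above. LRP4, the agrin receptor, had a knockdown-only peak in its 3' UTR (7.47-fold), and AGRN itself one of 3.4-fold, nearest to the TSS of RNF223. ACHE, the esterase that ends the signal, had a control-only peak (4.91-fold), which lay in the 5' UTR of UFSP1, 6.37 kb from the ACHE TSS. UTRN, the dystrophin homologue, had 3 control-only peaks and a shared one in a span of 588 kb.

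Myogenic regulators had shared peaks and peaks of either list alone. Of 32 genes, 15 had a knockdown-only, 9 a control-only and 15 a shared peak. The strongest shared peak was at the MAMSTR promoter (23.9-fold in the knockdown and 24.9-fold in the control list), followed by TEAD4, a factor that MYOD induces during differentiation (18.0 and 16.8 in an intron), which also had 3 knockdown-only peaks (up to 5.67-fold) and 1 control-only peak. PAX7, a marker of satellite cells, had 2 shared intron peaks (11.4 and 12.8, 8.74 and 7.42), and PAX3 had 3. MSC, a repressor of MYOD in rhabdomyosarcoma, had a shared peak 1.46 kb upstream of its TSS (9.98 and 10.0) and 2 knockdown-only peaks. ID1 and ID3, inhibitors that capture E proteins, had single-list peaks of both kinds and no shared peak. TCF12, an E protein partner, had a control-only intron peak of 9.10-fold with 3 CAGCTG. MYOD1 and MYOG were bound as shared sites with folds of 7.94 and 5.77 in the knockdown and 8.43 and 6.99 in the control list. MYOG also had a knockdown-only peak 5.93 kb upstream of its TSS (4.60-fold). MYL1, a fast myosin light chain, had a shared intron peak (6.41 in the knockdown and 4.16 in the control list) and a knockdown-only peak of 7.18-fold. No MYOD peak lay in or within 10 kb of SKP2, CDKN1B or CDKN1C in either list, as far as the calling threshold shows.

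Contractile genes followed. Of 58 sarcomere genes, 20 had a knockdown-only, 10 a control-only and 20 a shared peak. Shared promoter peaks were found at TPM2, a tropomyosin (12.8-fold in the knockdown and 16.2-fold in the control list), TRIM55, a titin-associated ubiquitin ligase (10.5 and 9.34), SMYD1, a methyltransferase of myosin assembly (9.33 and 9.12), TNNT1, slow troponin T (8.51 and 5.42, and 6.93 and 8.54 at a further site), and MYBPC2, a myosin-binding protein of fast fibers (6.08 and 5.47, beside a knockdown-only peak of 3.60-fold). MYPN, a Z-disc protein, had an intron peak of 11.6-fold in the knockdown list against 5.87-fold in the control list. MYPN also had a knockdown-only peak (3.97-fold) and 2 control-only peaks (5.46-fold, 0.73 kb from the TSS, and 3.27-fold). KLHL41, a stabilizer of nebulin, had 3 shared peaks that differed little between arms (9.20 and 8.40 for the strongest). Knockdown-only peaks lay within 1 kb of the TSS at ACTA1, skeletal alpha-actin (7.50-fold), ACTN3, fast alpha-actinin (6.24-fold), MYH3, embryonic myosin (3.92-fold), and KLHL40 (4.06-fold), with ACTN3 lying in an exon of its neighbor ZDHHC24. A promoter peak of MYLK2, the myosin light chain kinase of skeletal muscle, was control-only (5.10-fold), as was the SMPX intron peak (10.4-fold). MYLK2 also had knockdown-only peaks 6.84 kb upstream of its TSS (7.19-fold) and 16.9 kb downstream of it (4.41-fold).

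Genes of excitation-contraction coupling, which links the action potential to calcium release, were the next. Of 26, 9 had a knockdown-only, 3 a control-only and 9 a shared peak. The voltage sensor CACNA1S had 17-fold in the knockdown and 16.9-fold in the control list in an intron, and its partners were shared as well: the adaptor STAC3 (12.8 and 13.8 at the promoter), JSRP1 (17.4 and 14.8 at the promoter) and RYR1, the release channel (12.0 and 13.8). ATP2A1, the calcium pump of fast fibers, had 2 shared peaks (10.2 and 8.26, 10.2 and 7.34) in or just upstream of the gene. SRL, sarcalumenin, had 3 knockdown-only peaks (3.10 to 7.44-fold) beside a shared one. ORAI1, a store-operated channel, had 2 knockdown-only peaks of 3.52 and 3.54-fold. CACNA2D1 had 4 control-only peaks and no other, in a span of 518 kb.

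Fusion and adhesion genes have long spans (median 128 kb). Of 31, 14 had a knockdown-only, 9 a control-only and 11 a shared peak. MYMK and MYMX, which encode the fusogens myomaker and myomixer, were shared, MYMK at 12.7-fold in the knockdown and 9.83-fold in the control list and MYMX at 4.41 and 4.75. CDH15, M-cadherin, had 17 and 12.1 at its promoter. CDON and BOC, receptors that signal to MYOD, had shared peaks of 4.12 and 4.06 and of 10.0 and 8.10. Knockdown-only peaks lay in ELMO1, a regulator of RAC during fusion (2 peaks, up to 8.80-fold), and in ADGRB3 (10.8-fold). The integrin gene ITGA7 had a knockdown-only peak of 3.37-fold and a control-only peak of 8.23-fold, and ITGA9 had knockdown-only peaks of 5.59 and 3.61-fold and a control-only peak of 6.40-fold. The knockdown-only peak of ITGA7 lay 0.15 kb from the TSS of METTL7B and 26.3 kb from that of ITGA7.

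Energy metabolism of muscle had a different makeup. Of 25 genes, 10 had a knockdown-only peak, 1 a control-only and 3 a shared peak, and 9 had knockdown-only peaks and no other (2620 of 20033 over all genes). The median span of the list was 36.5 kb, below that of all genes. PHKG1, the catalytic subunit of muscle phosphorylase kinase, had the strongest of them (8.90-fold), and its abutting CAGCTG are shown above. AMPD1, muscle AMP deaminase (5.90-fold), PYGM, muscle glycogen phosphorylase (5.28-fold), LDHA (4.25-fold) and LDHB (4.12-fold) were bound within 1 kb of the TSS, and ALDOA (5.21-fold), ENO3 (3.49-fold), HK2 (3.42-fold) and MB, myoglobin (3.27-fold), farther away. With the exception of PHKG1 these folds ran from 3.27 to 5.90, around the knockdown-only median of 4.57, and no test of the list was made. The ENO3 peak lay in intron 2 of PFN1. GYS1 and PGM1 were shared (8.20 and 7.15 for GYS1), and CKMT2 was control-only with 2 peaks (up to 7.55-fold).

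Genes of the cell cycle and of signaling were counted in the same way. Of 38 cell cycle and replication genes, 8 had a knockdown-only, 7 a control-only and 9 a shared peak. CCND3, a D cyclin that MYOD induces, had 4 shared peaks in its span (up to 14.0-fold in the knockdown and 11.9-fold in the control list) and 2 control-only peaks, and the shared ones lay nearer to the TSS of TAF8. Of 11 CDK inhibitors and pocket proteins, 2, 1 and 3 had such peaks in the same order. CDKN1A had a shared site of 7.53-fold in the knockdown and 7.17-fold in the control list and a knockdown-only one of 2.95-fold, and RBL1, a pocket protein, had 9.01 and 7.57 at its promoter. Of 19 genes of the SCF ligase and neddylation, 4 had a knockdown-only and 2 a control-only peak, and none had a shared peak. Among them were FBXO32, the muscle F-box protein of atrophy (2 peaks, up to 4.13-fold), NEDD8 (5.10-fold) and, control-only, CKS2 (8.60-fold). Of 29 genes of ERK feedback and AP-1, 11 had a knockdown-only, 2 a control-only and 9 a shared peak, with SPRED2 (7.91-fold) and HRAS (7.07-fold) knockdown-only. Of 49 genes of Notch, WNT and TGF-beta signaling, 13, 6 and 13 had them. NOTCH1 had 3 shared peaks and LRP5, a WNT coreceptor, likewise 3 (up to 15.5-fold in the knockdown and 13.0-fold in the control list), whereas MSTN, myostatin, a brake on muscle growth, had 2 knockdown-only peaks (6.13 and 5.11-fold).

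Lists for other tissues served as a comparison. Of 22 markers of cardiac and smooth muscle, 3 had a knockdown-only, 1 a control-only and 1 a shared peak, and of 22 of epithelium and liver a single gene had a shared peak and none another class. Of 22 markers of neurons and glia, 8 had a knockdown-only peak (36.4%), none a control-only peak and 1 a shared peak. These included RBFOX3 (2 peaks, up to 8.59-fold), MAP2 (7.68-fold), MBP, GFAP and TUBB3, and 7 of the 22 markers had knockdown-only peaks and no other (2620 of 20033 over all genes). The median span of the list was 33.8 kb, but RBFOX3 spanned 542 kb and MBP 175 kb. MBP also had 2 shared peaks (up to 9.43-fold in the knockdown and 12.8-fold in the control list). Of 28 housekeeping genes, 7 had a knockdown-only, 2 a control-only and 5 a shared peak. Of 22 markers of blood and endothelium, 3 had a knockdown-only, 1 a control-only and 4 a shared peak.

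Among all single-list peaks, the strongest knockdown-only ones exceeded the strongest control-only ones in -log10 p. The ZNF280B peak reached 81.6 (16.8-fold) and the PPP1CB peak 61.8 (16.2-fold). Of the 10 strongest knockdown-only peaks within 100 kb of a TSS, 7 held a CAGCTG and 10 a CAGGTG within 100 bp of the summit. Of the 10 strongest control-only peaks, 9 held a CAGCTG and 5 a CAGGTG. In width the 10 knockdown-only peaks ran from 192 to 599 bp and the 10 control-only peaks from 183 to 453 bp. Beyond 100 kb from any TSS the strongest knockdown-only peak lay beside the centromeric cluster of chromosome 4 (-log10 p of 172, background of 11.1 fragments), and the next in ESR1, the estrogen receptor gene (11.8-fold). The shared peak of highest -log10 p (459) lay on chromosome 16 in a region of very high background, with a pileup of 1142 fragments and folds of just 5.71 in the knockdown and 5.59 in the control list.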

How the data were processed

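MYOD and H3K27ac ChIP-seq was done in RD cells with shSKP2 or shSCR, 1 library per antibody and arm. Cells were fixed with formaldehyde, chromatin was cut with micrococcal nuclease and Drosophila chromatin was added as spike-in. Per the labels and methods, the authors aligned reads with BWA 0.7.17 to GRCh38 and dm3, called peaks per library against an input with MACS3 and removed an exclusion list. Whether the spike-in scaled the peak calls is not given in the sources used here. The deposited lists hold a score, the fold of the summit pileup over background, each plus 1 (a ratio), and -log10 p and -log10 q values. The methods state a threshold that equals a -log10 p of 5, but 3.94% of the knockdown and 4.13% of the control MYOD peaks lie under it. Read totals were not analysed here.

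Peaks were compared by overlap of at least 1 bp. Pileup and background were recovered from the fold and the Poisson p for all 8457 and 5814 peaks (to 0.001 in -log10 p). TSS, exons and genes came from GENCODE release 44 (20033 protein-coding genes), and sequences from the hg38 reference. Motifs were searched on both strands within 100 bp of the summit, against windows shifted by 2 kb. Shares have Wilson and differences Newcombe 95% intervals. No test between arms was made. Scripts were tested on simulated data and used Python 3.11.15, numpy 2.4.6, pandas 2.3.3, scipy 1.17.1, pysam 0.24.0 and matplotlib 3.10.9.

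Genes were named by rule: fixed loci, the 10 peaks of highest -log10 p per class within 100 kb of a TSS and the 10 within 500 bp, the 10 largest and smallest pair ratios at a -log10 p of 10 or more in either list, the 10 clusters with most sites, the 2 members with most peaks of each class per gene list, the 5 peaks with most CAGCTG, and families of 15 or more genes. Not every gene that these rules give is named in the text. Other list members were chosen for naming after their values were seen. The members and gene lists were chosen with earlier results of these data known, and the CAGGTG comparison after its values were seen. Alternatives covered peak strength, list length, overlap, window sizes, cluster distance and regions of high background. A gene that the rule names is not reported here.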

Additional observations from a re-analysis of the deposited data

How the results depend on the processing

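Of 36 alternatives for 10 results, 13 stayed within the counting interval or 1.5 times the value, and 2 turned the direction. With both lists at the length of the shorter one, the promoter share of knockdown-only minus shared peaks was -0.45 points. With recovered pileup over the smallest background, the median log2 ratio of shared pairs was -0.17. In what follows "strong" means a -log10 p of at least 10 in both lists, which left 4779 knockdown and 3494 control peaks, and "equal" means equal list lengths. The knockdown-only share of the knockdown list was 46.4% (strong), 42.5% (equal) and 62.4% (reciprocal overlap of 50%). The shared part of the control list was 65.7% (-log10 p of at least 5), 73.2% (strong), 57.5% (equal), 54.7% (reciprocal overlap) and 65.4% (other list within 500 bp). The ratio of list lengths was 1.37 (strong) and 1 (equal). The promoter difference was 2.08 points (strong, interval -0.06 to 4.24). The CAGCTG difference to shared peaks was -8.55 (strong) and -8.63 (equal) for knockdown-only and -6.49 (strong) for control-only peaks. The median log2 fold of shared pairs, knockdown over control, was 0.037 (strong). Clusters numbered 52 (strong), 35 (sites up to 5 kb apart) and 476 (up to 25 kb). Genes with a knockdown-only peak numbered 2126 (equal). For CAGGTG, knockdown-only minus control-only peaks gave 13.2 (strong) and 15.1 points (equal). The CAGGTG alternatives and leaving out peaks of high background (22 knockdown and 38 control peaks) were chosen after seeing the data. Leaving out summits in repeats was not run, because the reference used here carries no repeat masking. No paired analysis was possible because each arm had 1 library. What depth limits was not tested, since read totals were not analysed here.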

Other observations

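MYOD peaks were densest on chromosome 19, with 7.52 per Mb in the knockdown and 4.91 per Mb in the control list, and sparse on chromosome 13 (0.49 and 0.39) and X (0.40 and 0.33). The knockdown-only share of the knockdown list ran from 49.9% on chromosome 6 to 63.4% on chromosome 4, with chromosome Y, which held a single peak, left out.

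Families were formed from the stems of gene symbols, with 15 or more genes each, and are values without a test. The highest knockdown-only share was that of SAMD genes (10 of 15), followed by DENND (9 of 17), STX (8 of 17), MYO, the unconventional myosins and their relatives (11 of 25), and RAD (8 of 20). The highest control-only shares were those of ATG (5 of 18) and MRPS, mitochondrial ribosomal proteins of the small subunit (8 of 29). Shared peaks were most frequent in SH genes (17 of 38). Spans differ between families, for example 159 kb for MYO and 32.6 kb for MRPS.

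GSE1 held the most knockdown-only peaks (11), beside 2 control-only and 4 shared peaks in a span of 527 kb. KCNMA1, a potassium channel gene, had 5 knockdown-only, 7 control-only and 2 shared peaks in a span of 789 kb. NRG1, encoding a neuregulin, had 1 knockdown-only, 2 control-only and 8 shared peaks, the most shared peaks of any gene.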
